A study of Mus musculus with 6 samples.

Results

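Mef2c, the gene for the transcription factor myocyte enhancer factor 2C, was followed in mouse neutrophils with and without the microRNA miR-223. Its members are the 3 Mef2c probe sets of the deposited array table, 1421027_A_AT, 1451506_AT and 1451507_AT, out of 45101 probe sets in all. They were chosen by identifier, and their pairing with Mef2c (gene ID 17260) comes with that choice, since the table itself holds no gene names. A probe set is a group of short array probes read as a single value for a stretch of transcript. In the maker's naming, the suffix _A_AT marks a probe set that reads several transcripts of one gene, and RefSeq lists 18 curated Mef2c mRNAs.

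The study hybridised 6 Affymetrix arrays, 3 for wild-type neutrophils and 3 for miR-223 null neutrophils. All cells were grown from mouse bone marrow progenitors. Both groups had the same treatment: 6 days in SILAC medium, made for isotope labelling of proteins, with the growth factors G-CSF and SCF, then 42 hours with SCF left out, and magnetic selection of live cells. The labels give no allele, strain, age or sex, and do not say if each replicate had its own mouse or culture, so p-values measure only the spread between these arrays, which may be technical.

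MEF2C is a MADS-box transcription factor, best known for driving gene programmes in muscle, heart and neurons, and it also acts in lymphoid and myeloid progenitors. MicroRNAs guide a silencing complex to mRNAs that pair with them, mostly through the seed near the microRNA's 5′ end, and lower the level or the translation of those mRNAs. miR-223 is abundant in granulocytes, and Mef2c is among its best known reported targets in that lineage. The comparison therefore asks whether Mef2c mRNA was higher in cells without miR-223. An array reads mRNA only, so protein was not measured here.

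The microRNA that the null cells lack is shown because its seed is what a target mRNA pairs with. Both mature arms are given 5′ to 3′ from RefSeq (GRCm38.p6, plus strand), with the seed, bases 2 to 8, in capitals. The 3p arm lies at chrX:96242884-96242905 and the 5p arm at chrX:96242842-96242864.
mmu-miR-223-3p: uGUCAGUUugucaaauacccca
mmu-miR-223-5p: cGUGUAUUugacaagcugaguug
A site that pairs with the whole 3p seed reads AACTGAC in the DNA of the target. Among the 1738 mature mouse microRNAs of that table, 0 others carry the seed of the 3p arm. Whether the Mef2c transcripts hold such a site was not analysed here.

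Mef2c mRNA was well above background in both genotypes. Levels are log2 intensities, so a step of 1 is a doubling of signal. Mef2c probe sets read between 6.21 and 8.55, while probe sets for bacterial tryptophan sequences averaged 2.77 to 2.86 on the same arrays. All 3 Mef2c probe sets passed the filter that kept the 27022 probe sets with a mean of at least 4.08. The level of miR-223 and the markers of neutrophils and other blood cells were not analysed here, because no row could be matched to them. In RNA from all selected cells of a sample together, a change in the share of Mef2c-expressing cells cannot be told apart from a change in RNA per cell.

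Mef2c was slightly higher on average in null than in wild-type neutrophils, by 1.06 to 1.23-fold depending on the probe set, and the genotypes overlapped on each of them. None of the 3 Mef2c probe sets passed the test (limma, Benjamini-Hochberg adjusted p under 0.05), where 0.189% of all tested probe sets did. Their unadjusted limma p was 0.211, 0.274 and 0.732 in the order above. With arrays paired by replicate number, 0 of 3 passed as well, against 10.0% of tested probe sets. On each probe set the mean difference was smaller than the SD of the 3 null arrays. On 1421027_A_AT and 1451506_AT it was larger than the SD of the 3 wild-type arrays, and on 1451507_AT smaller.

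**Figure D1:**
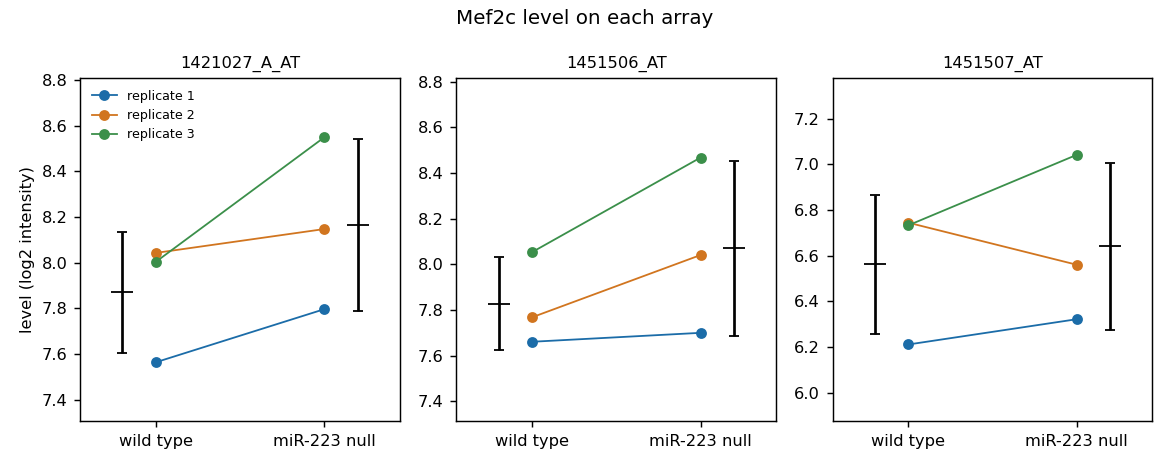
Mef2c level (log2 intensity) on each array, 1 panel per probe set, each with its own vertical position but the same span. Points are arrays, lines join arrays of the same replicate number, and black bars give the mean and SD of 3 arrays. Null replicate 3 is the highest array and wild-type replicate 1 the lowest in every panel.

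Probe set 1421027_A_AT, which reads several transcripts, gave 7.80, 8.15 and 8.55 in null replicates 1, 2 and 3. It gave 7.56, 8.04 and 8.005 in the wild-type replicates. Null replicates 2 and 3 lay above all wild-type arrays, while null replicate 1 lay below wild-type replicates 2 and 3, so the groups overlapped. The null arrays averaged 8.16 ± 0.38 (SD, n = 3), against 7.87 ± 0.27 (SD, n = 3) for wild type. The log2 difference was 0.29 (SE 0.21, limma adjusted p = 0.705), a 1.23-fold higher signal with a 95% interval from 0.866 to 1.74-fold. A doubling of Mef2c signal lies outside this interval.

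Probe set 1451506_AT read 7.70, 8.04 and 8.47 in null replicates 1, 2 and 3. The wild-type replicates read 7.66, 7.77 and 8.05. Only null replicate 3 lay above all wild-type arrays, and null replicate 1 was just above wild-type replicate 1. Mean levels were 8.07 ± 0.38 (SD, n = 3) for null and 7.83 ± 0.20 (SD, n = 3) for wild type. The log2 difference was 0.24 (SE 0.21, limma adjusted p = 0.756), or 1.18-fold, with a 95% interval from 0.849 to 1.65-fold.

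Probe set 1451507_AT showed the smallest difference of the 3. Null replicates 1, 2 and 3 read 6.32, 6.56 and 7.04, and the wild-type replicates read 6.21, 6.74 and 6.73. Again null replicate 3 was the highest, while null replicates 1 and 2 both lay below wild-type replicates 2 and 3. Mean levels were 6.64 ± 0.37 (SD, n = 3) and 6.56 ± 0.30 (SD, n = 3). The log2 difference was 0.08 (SE 0.22, limma adjusted p = 0.945), or 1.06-fold, with a 95% interval from 0.739 to 1.51-fold.

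No Mef2c probe set separated the genotypes. Groups without overlap were found for 0 of the 3, against 16.8% of the 27022 tested probe sets. Averaged over its 3 probe sets, Mef2c read 7.27, 7.58 and 8.02 in null replicates 1, 2 and 3 and 7.15, 7.52 and 7.60 in the wild-type replicates. The mean difference was 0.20 log2 units, or 1.15-fold (exact two-sided permutation p = 0.5, n = 3 against 3, where the smallest possible p is 0.1). It was 0.01 without null replicate 3, 0.07 without wild-type replicate 1 and 0.38 without null replicate 1. Each of these leaves the replicate numbers uneven between the genotypes.

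Comparing arrays of the same replicate number leaves the mean difference unchanged by construction, and gave it a narrower interval. For 1421027_A_AT the null array was higher by 0.23, 0.10 and 0.55 log2 units in pairs 1, 2 and 3. For 1451506_AT it was higher by 0.04, 0.27 and 0.41. For 1451507_AT the differences were 0.11, -0.18 and 0.31, so pair 2 ran the other way. The first 2 of these probe sets were thus higher in null in all 3 pairs, as were 21.6% of all tested probe sets. The pairing of replicates 2 and 3 is not settled. Set against wild-type replicate 3 instead, null replicate 2 was slightly lower on 1451506_AT (8.04 against 8.05).

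With the replicate number as a block, the difference of 1421027_A_AT kept its size by construction and its SE fell to 0.09 (limma adjusted p = 0.0943). Its 95% interval, not adjusted for the number of probe sets, ran from 0.07 to 0.51 log2 units, or 1.05 to 1.43-fold. For 1451506_AT the interval ran from 0.04 to 0.44 (SE 0.09, limma adjusted p = 0.127), and for 1451507_AT from -0.18 to 0.34 (SE 0.11, limma adjusted p = 0.724). Before adjustment the limma p was 0.0152, 0.0255 and 0.506 for these probe sets. The blocked fit passed rises as small as 0.11 log2 units elsewhere on the array, while the smallest rise passed without the block was 0.37, above each of the Mef2c differences. For the mean of the 3 probe sets the pairs differed by 0.13, 0.06 and 0.42, and the exact two-sided test within pairs gave p = 0.25, the smallest that 3 pairs can give.

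**Figure D2:**
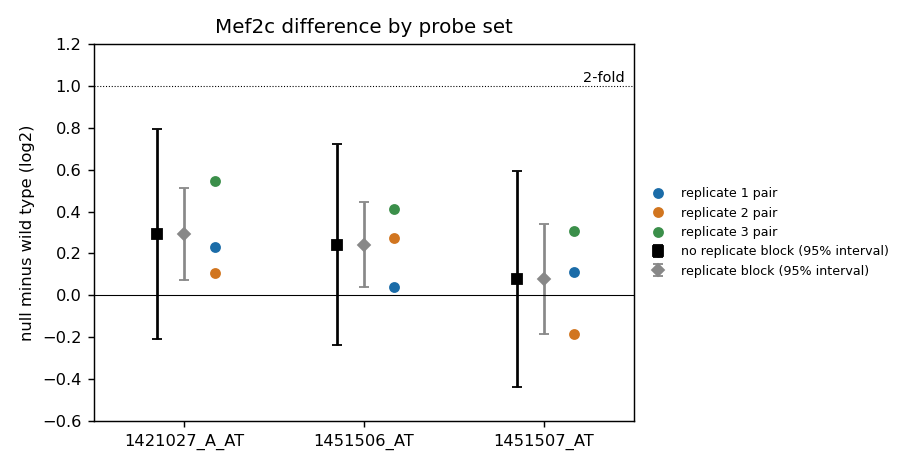
Null minus wild-type difference (log2) of each Mef2c probe set. Black squares and grey diamonds give the limma estimate with its 95% interval without and with the replicate block, coloured points the 3 replicate pairs, and the dotted line a 2-fold rise. Intervals without the block include 0 on all 3 probe sets, and none of the 6 intervals reaches a 2-fold rise.

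Among all tested probe sets, Mef2c lay on the side of higher signal in null cells but not at its end. A larger rise than that of 1421027_A_AT was shown by 5.91% of tested probe sets, than that of 1451506_AT by 8.45%, and than that of 1451507_AT by 29.3%. The median difference over all tested probe sets was -0.01 log2 units. Mef2c also varied more between replicates than most: the residual SD was 0.33, 0.31 and 0.34 log2 units for the 3 probe sets in the order above, where the median was 0.15. A larger residual SD was found for 9.47%, 11.4% and 8.52% of tested probe sets. With the replicate block the residual SDs were 0.16, 0.13 and 0.18, where the median was 0.09, and 21.6%, 30.3% and 17.7% of tested probe sets had a larger one.

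**Figure D3:**
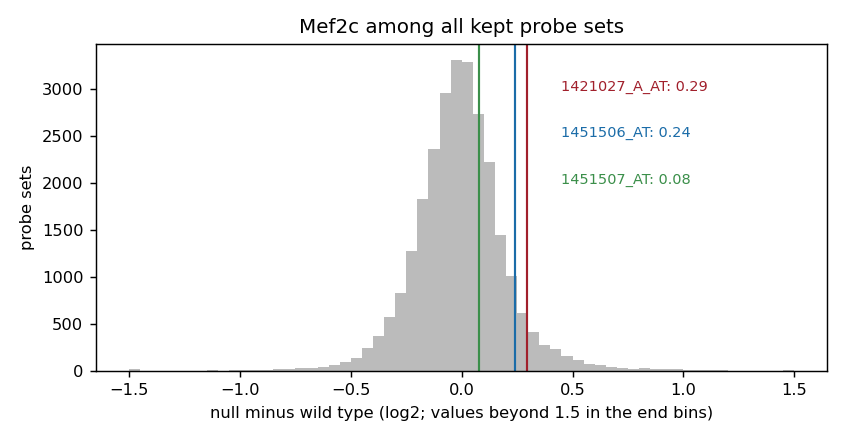
Histogram of the null minus wild-type difference (log2) of the 27022 tested probe sets, in bins of 0.05, with vertical lines at the 3 Mef2c probe sets. The lines stand at 0.08, 0.24 and 0.29, to the right of the peak. A larger rise was shown by 29.3%, 8.45% and 5.91% of the tested probe sets.

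The replicates differed more than the genotypes did. Replicate 1 had the lowest Mef2c level in both genotypes on every probe set. Averaged over both genotypes, the replicate 1 arrays differed from the others by -0.51 log2 units on 1421027_A_AT, -0.40 on 1451506_AT and -0.50 on 1451507_AT. A larger fall in replicate 1 was shown by 6.21%, 9.93% and 6.27% of tested probe sets. The replicate 1 arrays also had the highest poly-A spike controls, 8.58 and 8.75 against 7.99 to 8.42, and the largest 3′ minus 5′ difference of beta-actin, 0.26 and 0.28 against 0.15 to 0.21. Their part in the Mef2c level was not tested. With both replicate 1 arrays left out, the differences were 0.32, 0.34 and 0.06 log2 units (limma adjusted p = 0.224, 0.267 and 0.875).

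The size of the Mef2c difference depended on single arrays. Without null replicate 3 the differences of 1421027_A_AT, 1451506_AT and 1451507_AT were 0.10, 0.04 and -0.12 log2 units (limma adjusted p = 0.903, 0.960 and 0.884). Without wild-type replicate 1, the lowest array, they were 0.14, 0.16 and -0.10, and without null replicate 1 they rose to 0.48, 0.43 and 0.24. Without wild-type replicate 2 they were 0.38, 0.21 and 0.17, and without wild-type replicate 3 they were 0.36, 0.35 and 0.16. Without null replicate 2 the last one moved from 0.08 to 0.12. None of these passed the test. Leaving out a single array also leaves the replicate numbers uneven between the genotypes, and replicate 1 read lower in both. With the replicate block and both replicate 3 arrays left out, the differences were 0.17, 0.16 and -0.037. The same null replicate 3 held the lowest level of the transferrin receptor, the iron uptake receptor read by named control probe sets: 6.83, against 7.56 to 8.08 on the other 5 arrays. That gene was looked at after its values were known, and its link to the Mef2c level was not tested.

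**Figure D4:**
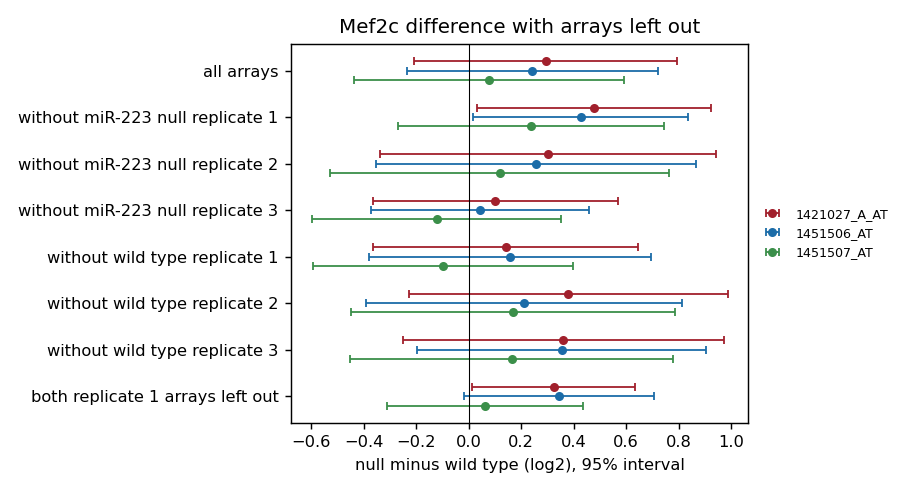
Null minus wild-type difference (log2) of each Mef2c probe set with all arrays and with arrays left out, as limma estimates with 95% intervals without the replicate block. The estimates lie between -0.12 and 0.48, and 1451507_AT falls below 0 without null replicate 3 and without wild-type replicate 1.

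The 3 probe sets followed each other across arrays, though not fully. Over the 6 arrays, 1421027_A_AT correlated at r = 0.919 with 1451506_AT and at r = 0.925 with 1451507_AT, and those correlated with each other at r = 0.849. Readings of 1 gene on the same arrays share their RNA, so these values describe the arrays and carry no test. Such agreement was not particular to the gene: 3.07% of the tested probe sets correlated more closely with 1421027_A_AT than 1451506_AT did, and 2.71% more closely than 1451507_AT did.

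Whether the probe sets differed in their response was tested on their differences within each array, for 3 pairs of probe sets. The level of 1421027_A_AT minus that of 1451507_AT was 1.48, 1.59 and 1.51 in null replicates 1, 2 and 3, and 1.35, 1.30 and 1.27 in the wild-type replicates. All null arrays lay above all wild-type arrays in this measure. It averaged 1.52 ± 0.06 (SD, n = 3) for null and 1.31 ± 0.04 (SD, n = 3) for wild type, a shift of 0.22 log2 units (exact two-sided permutation p = 0.1, the smallest possible, and 0.3 after Benjamini-Hochberg adjustment over the 3 pairs). The shift was 0.12, 0.29 and 0.24 in replicate pairs 1, 2 and 3. For 1451506_AT minus 1451507_AT the shift was 0.16 (exact two-sided permutation p = 0.3, adjusted 0.45), and for 1421027_A_AT minus 1451506_AT it was 0.05 (exact two-sided permutation p = 0.7, adjusted 0.7). The former shift was 0.04 without wild-type replicate 2 and 0.26 without wild-type replicate 1. The latter was 0.17, -0.02 and 0.01 without wild-type replicates 2, 1 and 3. The shift between 1421027_A_AT and 1451507_AT ranged from 0.18 to 0.24 with any array left out. With 3 arrays per group no such test can pass 0.05. How often other pairs of probe sets separate without overlap was not analysed here, while 16.8% of single tested probe sets did.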

How the data were processed

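The deposited table holds log2 intensities for 45101 probe sets on 6 arrays. Per the submitters' processing notes GCOS was used. The background correction, normalization and probe summary are not given in the sources used here. The log scale was read from the values, whose array medians lay between 4.71 and 4.73, and they were used as deposited. A normalization to one scale removes any change in total mRNA.

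The 64 control probe sets were set aside, and those with a mean below the 40th percentile (4.08) were left out, which kept 27022. Null minus wild-type differences came from limma 3.58.1 (R 4.3.3; lmFit, eBayes with intensity trend), two-sided, over all kept probe sets, without and with the replicate number as a block. The code was tested on simulated data. Exact permutation tests used scipy 1.17.1.

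Deviations from the group mean correlated at r = 0.70, 0.30 and 0.48 between null and wild-type arrays of replicates 1, 2 and 3, all over 0.1, so arrays of one number were treated as pairs. The swapped pairs passed 0.1 too, at r = 0.21 (null replicate 2, wild-type replicate 3) and r = 0.41 (null replicate 3, wild-type replicate 2). Deviations within a group cancel out, so a shared shift of replicate 1 alone can make these correlations positive. The rule thus sets replicate 1 apart but cannot decide how replicates 2 and 3 pair, which is not settled. The pairing used comes from the data, as the labels do not say what a number stands for.

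Members, lists and tests were chosen with earlier results of these data known. Named were the 3 Mef2c probe sets. The MEF2 and cell type lists, the 5 genes most like Mef2c, Igf1r and a search for miR-223 sites were planned but not run, because probe sets could not be paired with other genes here and no transcript sequence was used. Alternatives were other filters, normalizations and variance models, the block, and arrays left out.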

Additional observations from a re-analysis of the deposited data

How the results depend on the processing

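No Mef2c probe set passed in any of the 18 settings run. 1421027_A_AT and 1451506_AT kept a positive difference in all 17 alternatives, and 1451507_AT in 14. Some of these could not change it. The other filters, the fit without intensity trend and the blocked fits of all 6 arrays leave a mean difference as it is. With arrays left out in turn, the differences ranged from 0.10 to 0.48, 0.04 to 0.43 and -0.12 to 0.24 log2 units, with 1451507_AT at -0.12 without null replicate 3 and -0.10 without wild-type replicate 1. With the replicate block and a pair left out they ranged from 0.17 to 0.39, 0.16 to 0.34 and -0.037 (without replicate 3) to 0.21. The lowest limma adjusted p over all alternatives was 0.0943, 0.0612 and 0.478. The block changed no Mef2c call. The mean over the probe sets ranged from 0.01 to 0.38 with an array left out. Its test within pairs, the replicate block, gave the same 0.20 by construction. The shift between 1421027_A_AT and 1451506_AT turned to -0.0176 without wild-type replicate 1 and to -0.0183 without both replicate 1 arrays, the latter chosen after seeing the data. The cause was not tested.

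The background count of 51 probe sets became 2703 with the replicate block, 191 with the block and no intensity trend, 606 to 2319 with the block and a pair left out (2045 without replicate 1), and 1072 without both replicate 1 arrays. It was 0 to 58 with an array left out. It was 0 without null replicate 2 or wild-type replicate 2, where limma gave 2064 and 1753 at an unadjusted p under 0.05. Alternatives for the MEF2 lists and miR-223 sites were not run. Without the block, the 3 intervals include no change and reach at most 1.74-fold. With all 6 arrays, the block and the intensity trend, the intervals reach at most 1.43-fold. Those of 1421027_A_AT and 1451506_AT, not adjusted for the number of probe sets, then lie above no change. This depended on single pairs. Without replicate 3 the blocked intervals included no change for 1421027_A_AT (-0.02 to 0.36 log2 units) and 1451506_AT (-0.05 to 0.37). Without replicate 2 that of 1451506_AT did too (-0.06 to 0.51), and that of 1421027_A_AT reached 1.58-fold.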
